A study of Homo sapiens with 9 samples.

Results

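The chromosome 19 ZNF genes are the protein-coding genes of that chromosome whose RefSeq symbol is ZNF followed by a number. Transcript identifiers of the deposited count tables were matched to RefSeq symbols, and 242 of the 26625 genes in the tables met the rule. Each gene was represented by the transcript entry with most reads over the libraries, and the readthrough loci ZNF559-ZNF177 and ZNF816-ZNF321P were left out. ZNF557 is described apart from the other 241 members, because 1 library held nearly all of its reads. CLT-seq, the assay used, primes total RNA with an adaptor-flanked oligo(dT) primer, joins a further adaptor to the cDNA through a splint and amplifies the product by PCR. Of 9 libraries, the 7 with gene counts were analysed here, 1 per combination of cell line and primer. HEK293T, a wild-type human embryonic kidney line grown in high-glucose DMEM with FBS, was primed with T12, T18 or T30, which end in that many T and are called unanchored here. HEK293T was also primed with T18V, T18VN or T18VNN, which carry 1, 2 or 3 anchor bases after 18 T (V is any base but T, N any base) and are called anchored here. A549, a wild-type human lung carcinoma line grown in F-12K with FBS, was primed with T12. The designed primer T18 is shown with its T run in capitals, because the primer contrast turns on the base that follows this run: the anchored primers add V, VN or VNN there.
T18: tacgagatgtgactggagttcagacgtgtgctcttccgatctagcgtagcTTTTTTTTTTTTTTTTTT

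Most proteins of this family carry arrays of C2H2 zinc fingers, each of which reads a few bases of DNA, and many begin with a KRAB domain. KRAB recruits TRIM28, which brings the histone methyltransferase SETDB1, HP1 proteins and the NuRD complex to the bound site, and many KRAB zinc finger proteins silence transposable elements this way. The genes lie in clusters of tandem duplicates along chromosome 19, so neighbouring members can be close in sequence. How reads that fit several paralogs were treated, and whether strand was used, is not given in the sources used here, so the reads of near-identical, overlapping or antisense genes are uncertain.

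Reads assigned to genes numbered from 1498179 in A549 T12 to 5200793 in HEK293T T18. They made up 11.7% to 20.3% of the library total with unanchored HEK293T primers, 27.7% to 37.5% with anchored ones and 13.5% in A549. This share moves with the primer class, and its part in the comparisons between classes was not tested. Levels are given as CPM, counts per 1000000 gene reads with ZNF557 left out of the total. Levels of different genes are compared as CPM per kb of transcript unless said otherwise. The 12 A549 markers examined summed to 18142 CPM in A549 and to between 12.1 and 32.7 CPM in the HEK293T libraries, and each was past 2-fold. Of 8 HEK293T markers 6 were at 0 reads in A549 and 1 was at least 2-fold higher there. Of 10 genes of blood, endothelium and fibroblasts 9 were at 0 in A549 and 1 was at least 2-fold higher, with sums of 38.0 CPM in A549 and 5.51 to 31.1 CPM in HEK293T. Because each primer has 1 library, primers of a class stand in for replicates, and p-values measure the spread between primers and not between cultures. In bulk RNA, fewer cells that express a gene and less RNA per cell cannot be told apart.

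The members were read at low levels, and the genomic clusters differed in how many were read at all. Their median level over the 6 HEK293T libraries was 0.465 CPM per kb. It was 1.68 for 248 ZNF genes on other chromosomes and 1.16 for 1060 other protein-coding chromosome 19 genes. In CPM not divided by length the medians were 1.75, 6.04 and 2.79, so the order held with smaller gaps. Of 241 members 37 (15.4%) had 0 reads in all 7 libraries, and 52 (21.6%) had 5 or more reads in every HEK293T library. The share at 0 throughout was 10.5% for ZNF genes on other chromosomes, but 24.7% for other chromosome 19 genes and 23.2% for all protein-coding genes. The share with 5 or more reads in every HEK293T library was 49.6% (123 genes) for ZNF genes on other chromosomes and 41.4% (439 genes) for other chromosome 19 genes. Members with 5 or more reads numbered 109, 129 and 86 in the T12, T18 and T30 libraries, 103, 123 and 121 in the T18V, T18VN and T18VNN libraries, and 98 in A549. At the depth of the A549 library, 73.3 to 94.0 members would have reached 5 reads in the HEK293T libraries, against 98 in A549. Over all genes the same values were 10037 to 10784 and 11177, so A549 was also highest there.

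Clusters, taken as runs of at least 5 members whose starts lie at most 500 kb apart, numbered 10, with 13 members scattered between them. The cluster from ZNF101 to ZNF254 (19.8 to 24.3 Mb in hg19) was sparsely read: 16 of its 33 members had 0 reads in all 7 libraries, and only ZNF101, ZNF430 and ZNF714 had 5 or more reads in every HEK293T library. ZNF91 and ZNF93, which bind SVA and LINE-1 retrotransposons, lie in this cluster. ZNF93 had 0 reads in all 7 libraries. ZNF91 had 2 reads with T18VNN and 0 elsewhere. ZNF43 had 2 reads, all with T18VN, and ZNF85 had 5 reads, all with T12 in HEK293T. A count of 0 allows up to 3 reads, which is 0.622 CPM in the deepest library (HEK293T T18) and 2.00 CPM in A549. From ZNF653 to ZNF791, 9 of 25 members were at 0 throughout, and from ZNF175 to ZNF331 8 of 39 were. No member was at 0 in all 7 libraries in the clusters from ZNF565 to ZNF573 (26 members), ZNF575 to ZNF180 (23), ZNF628 to ZNF835 (16) and ZNF264 to ZNF446 (43). How far shared sequence between paralogs sets these zeros was not tested.

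**Figure D1:**
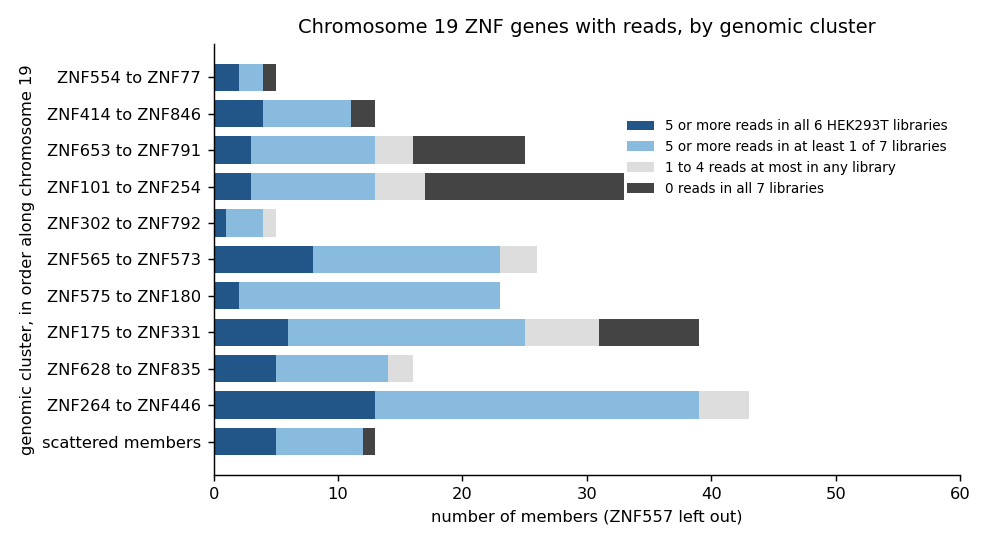
Number of members (horizontal axis) in each genomic cluster, in order along chromosome 19, divided by how many reads they had. Zeros in all 7 libraries (dark grey) are most numerous from ZNF101 to ZNF254, with 16 of 33 members, and absent from 5 clusters.

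Open reading frames of the matched GENCODE transcripts held a median of 13 C2H2 finger patterns, with a range from 1 in ZNF428 to 39 in ZNF729. A KRAB pattern was found in 207 members and not in 34, and 1 member had no matched transcript. The members without the pattern had higher GC content in the transcript (median 61.7% against 42.1%) and a higher median level, 1.13 against 0.394 CPM per kb. In CPM not divided by length these medians were 2.87 and 1.42. Among them 13 of 34 (38.2%) had 5 or more reads in every HEK293T library, and 38 of 206 (18.4%) of those with the pattern did. Of the 20 members with most reads per kb, 10 lacked the KRAB pattern. The level per kb had Spearman's rho of 0.31 with transcript GC and -0.13 with the finger count over 240 members with a matched transcript, and 0.32 with the number of CpG in the promoter over 212 members with a listed promoter. These correlations are across genes of the same libraries, and genes are not independent replicates.

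The 8 members with the highest mean CPM per kb in HEK293T (mean ± SD over 6 primers) began with ZNF302 at 113 ± 128, a KRAB zinc finger gene whose SD exceeds its mean. ZNF428, with a single finger pattern and no KRAB pattern, followed at 94.5 ± 26.9, and its span overlaps SRRM5. ZNF580 had 47.1 ± 17.8, ZNF358 18.5 ± 8.63, ZNF146 12.7 ± 4.27, ZNF714 12.2 ± 6.79, ZNF584 11.1 ± 4.97 and ZNF324B 10.1 ± 2.53. The intervals of one SD of ZNF358, ZNF146, ZNF714, ZNF584 and ZNF324B overlap, so their order is not resolved. That of ZNF302 overlaps those of all the others, so its first place is not resolved either. ZNF146, also called OZF, is a protein made up of zinc fingers alone. In A549 the same quantity was 117 for ZNF302, 99.5 for ZNF428, 94.1 for ZNF580 and 28.2 for ZNF146, but 2.05 for ZNF714 and 1.78 for ZNF324B.

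Anchored primers were compared with unanchored primers in HEK293T to ask which transcripts depend on where the oligo(dT) primer can start. Of the 98 members with enough reads for the test (99 with ZNF557), edgeR's quasi-likelihood test called 1 lower with anchored primers, ZNF302, at a Benjamini-Hochberg adjusted p under 0.05. It called 0 higher. DESeq2 called 4 of the 98 members lower and 0 higher, and 315 and 282 of all 10886 genes. At an unadjusted p under 0.05, 9 members were lower and 3 higher, where 7.48% of all tested genes were lower and 8.08% higher. Over the 10886 genes tested, edgeR called 62 lower (0.57%) and 85 higher (0.781%), so the members' edgeR counts are near this background. The members' median log2 fold change was -0.18, with 58 of 98 below 0, and the median over all genes was -0.0016. Members whose 3 anchored libraries all lay below the 3 unanchored ones numbered 8 of 98 (8.16%), where 7.63% of all tested genes did so. The opposite arrangement held for 9 members (9.18%), against 15.8% of all tested genes.

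ZNF302 (chr19:35168544-35177302 in hg19, plus strand) had 583 CPM with T12, 436 CPM with T18 and 1022 CPM with T30. With anchored primers it had 23.8 CPM with T18V, 59.1 CPM with T18VN and 22.8 CPM with T18VNN. The classes did not overlap, and the lowest unanchored library exceeded the highest anchored one several times over. Class means were 680 ± 305 and 35.3 ± 20.7 CPM (SD, n = 3 primers), and ZNF302 fell by 4.43 on the log2 scale (SE 0.51, adjusted p = 0.00263, edgeR quasi-likelihood test, lower in 3 of 3 anchored libraries). A549 with T12 had 368 CPM, below the 3 unanchored and above the 3 anchored HEK293T libraries.

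The files list ZNF302 under 15 protein-coding transcript entries, and the reads fell on only some of them. Of these, 6 match GENCODE transcripts with an unbroken run of 49 A and 9 match transcripts whose longest run is 6 A. The run lies at positions 731 to 779 of a GENCODE transcript, inside a segment of 260 nt that the other matched transcripts lack, and 5 pairs of deposited entries differ in length by exactly 260 nt. The longest entry with the segment held 1905, 2102 and 2264 reads in the T12, T18 and T30 libraries, 67, 265 and 82 in the T18V, T18VN and T18VNN libraries, and 551 in A549. On the entry that is 260 nt shorter there were 8, 7, 2, 2, 4, 27 and 14 reads in the same order. The segment therefore held 99.6%, 99.7% and 99.9% of the gene's reads with T12, T18 and T30, and 97.0%, 98.5% and 67.1% with T18V, T18VN and T18VNN. Without the segment ZNF302 stood at 1.60 ± 0.785 CPM with unanchored and 3.04 ± 3.87 CPM with anchored primers (SD, n = 3 primers each), and the classes overlapped. None of the other protein-coding genes among 18087 matched to a transcript had a run of A as long. These transcript sites show the base context in which each longest run begins, with the run in capitals, and ZNF302 and ZNF430 show only the start of their runs. ZNF430 (19 A) and ZNF557 (15 A) are shown as members with a run near the length of the primers, and ZNF324 (5 A) as one without.
ZNF302: ttttcaagaagtAAAAAAAAAAAAAAAAAA
ZNF430: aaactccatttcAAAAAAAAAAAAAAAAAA
ZNF557: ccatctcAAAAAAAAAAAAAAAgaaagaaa
ZNF324: tccacagcagagAAAAAgtcccgtgcttgc

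**Figure D2:**
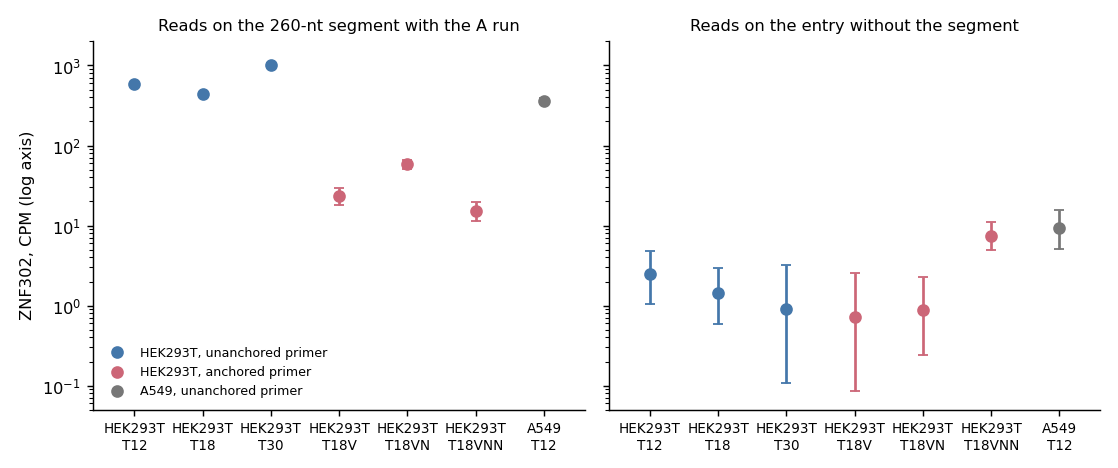
CPM of ZNF302 (vertical log axis) in each library, for reads on the 260-nt segment (left) and on the entry without it (right), with exact 95% Poisson intervals that cover counting error only. On the segment the unanchored HEK293T libraries lie between 434 and 1021 CPM and the anchored ones between 15.3 and 58.3, while without it all 6 lie between 0.712 and 7.51.

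Runs of A occur in other members too: 38 of 241 matched members (15.8%) held a run of at least 12 A, against 10.8% of 18087 genes. Across all genes tested, the median log2 fold change was 0.06 for 9085 genes with a longest run of up to 11 A, -0.23 for 1051 genes with 12 to 17, -0.38 for 401 genes with 18 to 24 and -0.81 for 150 genes with 25 or more. In that last class 19 genes (12.7%) were called lower and 0 higher by edgeR. Of the 4 tested members in it, ZNF302 was called, and ZNF320 (26 A), ZNF417 (27 A) and ZNF570 (27 A) had log2 fold changes of -1.13 (SE 0.64), -0.07 (SE 0.64) and -0.05 (SE 0.89). The 74 tested members with up to 11 A had a median of -0.11, and the 12 with 12 to 17 A a median of -0.90, with 9 of 12 below 0 and 0 called. The 7 tested members with 18 to 24 A had a median of -0.13, and went from -1.10 (SE 0.50) in ZNF430 to 2.18 (SE 1.21) in ZNF773. ZNF773 has a run of 20 A and had 0 reads with T12 and T30, and its entries ranged from 0 to 134 reads over the 7 libraries. Among members with 18 or more A the log2 fold changes thus had both signs, and where within these transcripts the reads begin was not analysed here.

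**Figure D3:**
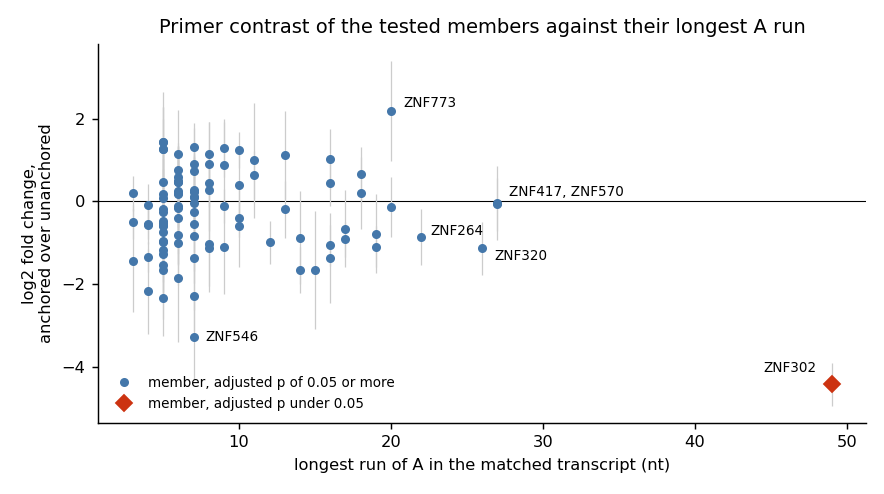
Log2 fold change of anchored over unanchored primers (vertical axis, bars are 1 SE) against the longest A run in the matched transcript, for the tested members. ZNF302, at 49 A and -4.43, lies apart from the other members, whose longest runs reach 27 A.

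Other members came near the threshold without passing it. ZNF324 had 34.9, 42.5 and 48.3 CPM with T12, T18 and T30 and 19.6, 18.1 and 10.3 CPM with T18V, T18VN and T18VNN. That is -1.53 on the log2 scale (SE 0.42), with an adjusted p of 0.10 in edgeR and 0.0159 in DESeq2. ZNF358 had 59.7, 47.2 and 44.7 CPM against 16.0, 23.9 and 25.6 CPM, or -1.34 on the log2 scale (SE 0.37), with an adjusted p of 0.102 in edgeR and 0.0209 in DESeq2. In both genes the classes did not overlap, and their longest runs were 5 and 4 A. ZNF546 rested on 1 library: it had 46.0 CPM with T30, 11.8 with T18 and 3.98 with T12, against 4.63, 0.446 and 2.22 CPM with anchored primers, so the classes overlapped. Its fitted difference was -3.28 on the log2 scale (SE 1.01), with an adjusted p of 0.141 in edgeR and 0.00695 in DESeq2, and -1.81 (adjusted p = 0.522, edgeR) without T30. ZNF101, ZNF579 and ZNF146 were the members higher with anchored primers at an unadjusted p under 0.05. ZNF101 had 9.19, 15.9 and 12.2 CPM against 27.0, 41.3 and 28.9 CPM (1.25 on the log2 scale, SE 0.44, edgeR adjusted p = 0.19). ZNF146 had 26.3, 37.5 and 39.3 CPM against 62.3, 65.2 and 62.3 CPM (0.74, SE 0.34, edgeR adjusted p = 0.319), and its span overlaps ZNF565.

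Single primers differed widely over the members. Against T12, 46 of 88 members with 20 reads (52.3%) differed at least 2-fold with T18, where 29.6% of all genes did. With T30 the share was 58.2% of 67 members against 36.9% of all genes. The anchored primers gave 54.5% against 40.0% for T18V, 50.5% against 36.9% for T18VN and 51.3% against 39.1% for T18VNN. The members have lower counts than most genes, and the part of counting error in these shares was not tested. The widest ranges among members with a mean of at least 10 CPM were those of ZNF302, ZNF546, ZNF234 and ZNF566. ZNF234 had 13.2, 25.7, 2.26, 17.8, 9.60 and 0.834 CPM in the order T12, T18, T30, T18V, T18VN, T18VNN, so that T30 and T18VNN were low and the classes overlapped. ZNF566 had 4.59, 33.4, 12.6, 45.2, 26.3 and 15.6 CPM in that order, lowest with T12. The narrowest were ZNF324B, from 20.8 to 38.3 CPM, and ZNF805, from 14.2 to 27.1 CPM.

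Summed over 241 members, the share of gene reads was 0.214%, 0.212% and 0.251% with T12, T18 and T30, and 0.140%, 0.155% and 0.132% with T18V, T18VN and T18VNN. The classes did not overlap, with means of 0.226% ± 0.0223 and 0.142% ± 0.0118 (SD, n = 3 primers). Without ZNF302 the shares were 0.155%, 0.168% and 0.149% against 0.137%, 0.149% and 0.130%, with means of 0.158% ± 0.00971 and 0.139% ± 0.00982. Without this gene the classes overlapped, with T30 at 0.1492% and T18VN at 0.1494%. The difference between the means was then -0.019 percentage points, where it was -0.083 with ZNF302. A549 had 0.228% with ZNF302 and 0.191% without it, above every HEK293T library in the latter case. Wilson 95% intervals of these shares reach at most 0.258% in HEK293T and cover counting error only, and the sum gets no test.

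**Figure D4:**
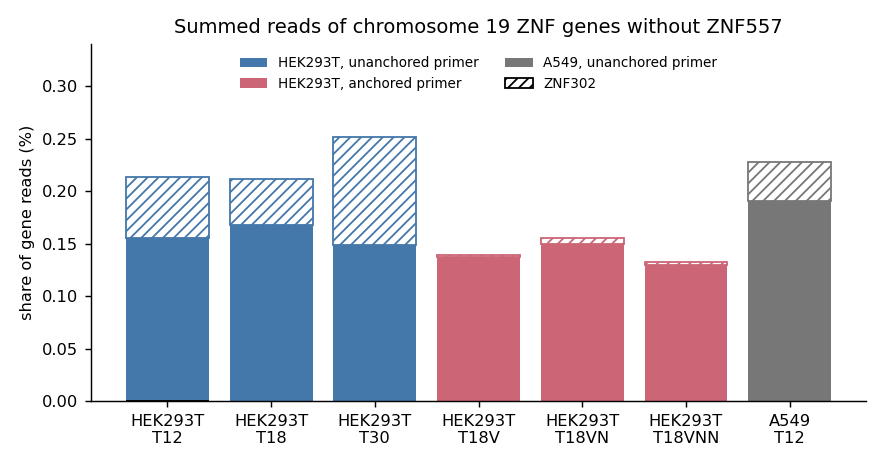
Share of gene reads on 241 members in each library (bars start at 0), with the part of ZNF302 hatched. ZNF302 makes up a visible part of the bar with the unanchored primers, and the solid part lies between 0.130% and 0.168% in all 6 HEK293T libraries.

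ZNF557 (chr19:7069471-7087979 in hg19), a KRAB zinc finger gene, had 374452 reads in HEK293T T18, 7.20% of that library's gene reads. The read numbers elsewhere in HEK293T were 145 (T12), 105 (T30), 218 (T18V), 284 (T18VN) and 204 (T18VNN), and A549 had 34. The 5 other HEK293T libraries lay between 44.4 and 77.6 CPM, and T18 at 77585 CPM. The 3 entries of the gene held the same reads, so the excess lies on sequence they share. The edgeR difference between the primer classes was -8.68 on the log2 scale (SE 2.34, adjusted p = 0.0979), and 0.34 (adjusted p = 0.76) without T18. ZNF557 had 22.7 CPM in A549, below all 6 HEK293T libraries and 1.96-fold below HEK293T T12 (exact 95% counting interval 1.34 to 2.93).

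A549 was compared with HEK293T with the T12 primer in both, 1 library per cell line, to ask how the cell lines differ in these genes. No test is possible, and a gene is counted as different at 2-fold on log2(CPM + 1) among genes with at least 20 reads in either library. Of 72 members, 22 were higher in A549 (30.6%, where 31.0% of all 10145 genes were) and 27 lower (37.5%, where 29.2% were). The higher share is near the background. Of the 72, 17 were also above all 6 HEK293T libraries, where 26.3% of all genes were, and 13 were below all 6, where 22.2% were. The members' median log2 ratio was 0.08, and that of all genes 0.02. Of 55 members with a KRAB pattern 26 were lower and 14 higher (median -0.66), and of 17 without it 1 was lower and 8 were higher (median 0.97). The difference between these subsets was not tested. The filter counts reads, and HEK293T T12 held 3265553 gene reads without ZNF557, against 1498145 in A549. A weakly read gene thus passes at a lower CPM through HEK293T than through A549. Without the filter 68 members were higher and 46 lower, so the balance of these counts depends on it. ZNF genes on other chromosomes had 23 of 134 higher and 54 lower, with a median of -0.37. Other protein-coding chromosome 19 genes had 180 of 512 higher and 141 lower, with a median of 0.18.

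The clusters differed in direction, though no difference between them was tested. Summed CPM of the cluster from ZNF554 to ZNF77 was 44.1 in HEK293T T12, 22.4 to 44.1 over the 6 HEK293T libraries and 2.67 in A549. From ZNF101 to ZNF254 it was 144 in HEK293T T12, 110 to 309 over HEK293T and 52.1 in A549, also below all 6. The sums from ZNF414 to ZNF846 (21.4 against 22.0 to 42.5) and from ZNF653 to ZNF791 (38.0 against 42.3 to 87.1) lay below all 6 as well. These rest on 32 and 57 reads in A549, and were 0.97 and 0.90 of the sums in HEK293T T12, so no direction can be read from them. Sums above all 6 HEK293T libraries were found from ZNF628 to ZNF835, with 300 CPM in A549 against 123 to 170, and from ZNF575 to ZNF180, with 310 against 130 to 230. From ZNF565 to ZNF573 the A549 sum was 320 against 194 to 246, and from ZNF264 to ZNF446 it was 368 against 234 to 314. From ZNF175 to ZNF331 it was 212 against 139 to 210, just above all 6. The 1060 other protein-coding chromosome 19 genes also summed above all 6, with 82517 CPM in A549 against 49209 to 60693. A raised sum in A549 is thus not particular to these clusters. Within clusters the members still went both ways, and a sum can rest on few genes. ZNF146 and ZNF260 held most of the A549 sum from ZNF565 to ZNF573, and ZNF175 a large part of that from ZNF175 to ZNF331. In both of these clusters the sum lay above all 6 HEK293T libraries while the median log2 ratio was below 0. From ZNF575 to ZNF180, 5 of 9 compared members were higher and 1 lower (median log2 ratio 1.10), and from ZNF628 to ZNF835 5 of 8 were higher and 1 lower (1.08). From ZNF175 to ZNF331, 5 of 9 were lower and 2 higher (-1.49), and from ZNF565 to ZNF573 6 of 11 were lower and 3 higher (-2.07). Over all genes compared, 31.0% were higher and 29.2% lower. The cluster splits rest on few members and were not repeated with another HEK293T reference or without the read filter.

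**Figure D5:**
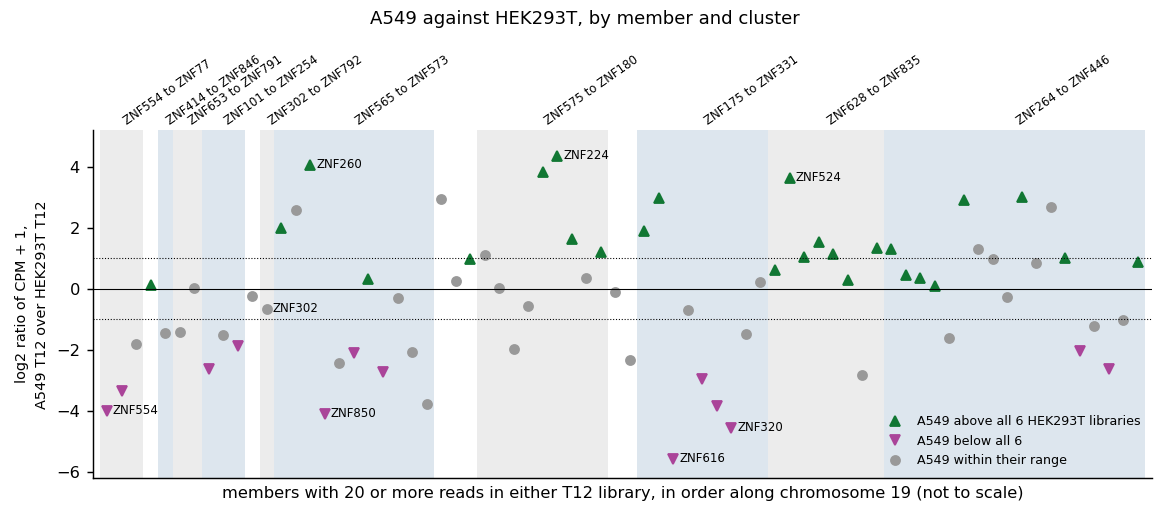
Log2 ratio of CPM + 1 in A549 T12 over HEK293T T12 (vertical axis) for the 72 compared members in order along chromosome 19, with shaded genomic clusters and dotted lines at 2-fold. Of these, 7 (9.72%) had 0 reads in A549, 4 of them between ZNF175 and ZNF331. Over all compared genes the share at 0 was 4.61%.

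The lowest members in A549 included a group of neighbours at 0 reads. Of the 72 compared members 7 (9.72%) were at 0 in A549. The share was 4.61% over all compared genes and 6.72% for ZNF genes on other chromosomes. ZNF616 had 151 reads in HEK293T T12 (46.2 CPM, with 9.25 to 46.2 CPM over HEK293T) and 0 in A549, at least 23.1-fold lower against a floor of 3 reads. Folds against this floor take the other library's count without its own counting error. ZNF320 had 73 reads (22.4 CPM, with 4.98 to 23.0 CPM over HEK293T) and 0, at least 11.2-fold lower. ZNF611 had 43 reads and 0, and ZNF701 22 reads and 0, at least 6.58-fold and 3.36-fold lower. All 4 lie between ZNF175 and ZNF331, and each was read in all 6 HEK293T libraries. ZNF850 had 127 reads (38.9 CPM, 25.3 to 47.8 over HEK293T) and 2 in A549, 29.1-fold lower (exact 95% counting interval 7.90 to 243). ZNF554 had 83 reads and 1, 38.1-fold lower (6.65 to 1522). ZNF324B had 38.3 CPM against 5.34, 7.17-fold lower (3.53 to 17). ZNF497 had 46.9 CPM against 10.7, 4.39-fold lower (2.62 to 7.87), and its span overlaps A1BG-AS1 and ZNF497-AS1. All of these A549 values lay below the 6 HEK293T libraries.

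The highest were led by ZNF260, with 4.29 CPM in HEK293T T12, 4.29 to 15.9 CPM over HEK293T and 87.4 CPM in A549, 20.4-fold higher (11.7 to 38.3). ZNF146 had 26.3 CPM, 26.3 to 65.2 over HEK293T and 109 in A549, 4.13-fold higher (3.16 to 5.43). ZNF175, described as a repressor of HIV transcription in macrophages, had 20.8 CPM, 15.3 to 34.5 over HEK293T and 80.1 in A549, 3.85-fold higher (2.83 to 5.26). ZNF264 was 2.56-fold, ZNF787 2.26-fold and ZNF580 2.06-fold higher, each above all 6 HEK293T libraries. ZNF230 had 0 reads in HEK293T T12, at most 2 in any HEK293T library and 20 in A549, at least 14.5-fold higher. Promoters were then read for the members that differed. RefSeq windows from 250 bases before to 50 after the start were listed for 213 of 242 members, with a median of 20 CG dinucleotides (the letters CG, the same on both strands), against 22 over 14467 protein-coding genes. The 25 listed promoters of members lower in A549 had a median of 24 and the 19 of members higher in A549 a median of 23, with overlapping quartiles. ZNF616, ZNF611, ZNF320 and ZNF230, with 24, 26, 20 and 19 CG, are printed to show these windows in GRCh38.p14, with each CG in capitals.
ZNF616 (chr19:52139889-52140188, minus strand): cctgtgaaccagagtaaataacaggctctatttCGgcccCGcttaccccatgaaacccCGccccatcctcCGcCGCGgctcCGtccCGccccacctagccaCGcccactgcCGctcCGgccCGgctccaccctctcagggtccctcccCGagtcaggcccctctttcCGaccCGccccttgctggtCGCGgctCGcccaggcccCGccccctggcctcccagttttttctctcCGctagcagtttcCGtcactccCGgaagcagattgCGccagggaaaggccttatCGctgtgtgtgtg
ZNF611 (chr19:52734995-52735294, minus strand): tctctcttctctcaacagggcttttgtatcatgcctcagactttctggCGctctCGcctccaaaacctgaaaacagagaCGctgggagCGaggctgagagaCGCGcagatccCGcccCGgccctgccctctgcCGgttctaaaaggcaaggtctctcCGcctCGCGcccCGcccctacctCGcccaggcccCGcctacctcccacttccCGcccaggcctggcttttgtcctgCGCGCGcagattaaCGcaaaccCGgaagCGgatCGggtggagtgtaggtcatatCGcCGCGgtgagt
ZNF320 (chr19:52897645-52897944, minus strand): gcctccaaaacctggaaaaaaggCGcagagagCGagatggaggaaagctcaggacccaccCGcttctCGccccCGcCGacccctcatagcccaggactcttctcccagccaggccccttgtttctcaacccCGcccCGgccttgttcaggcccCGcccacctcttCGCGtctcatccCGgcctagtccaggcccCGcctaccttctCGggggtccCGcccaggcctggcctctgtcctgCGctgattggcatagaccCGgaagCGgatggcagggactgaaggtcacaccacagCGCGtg
ZNF230 (chr19:44002707-44003006, plus strand): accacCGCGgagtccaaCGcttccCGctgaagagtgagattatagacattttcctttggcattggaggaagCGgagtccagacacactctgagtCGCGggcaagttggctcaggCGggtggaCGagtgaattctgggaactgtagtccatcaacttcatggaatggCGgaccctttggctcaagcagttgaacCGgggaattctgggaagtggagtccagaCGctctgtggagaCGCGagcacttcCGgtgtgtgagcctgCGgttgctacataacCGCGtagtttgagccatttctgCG

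Members with a described role were mostly weakly read. ZNF224, a KRAB repressor of the aldolase A gene, had 0, 14, 18, 21, 34 and 42 reads in HEK293T in the order T12, T18, T30, T18V, T18VN, T18VNN and 29 in A549. That is 19.4 CPM in A549 against 0 to 11.7, at least 21.1-fold above HEK293T T12, and its span overlaps ZNF225-AS1. ZNF420, or APAK, which binds p53, had 14.7 CPM in HEK293T T12 and 2.67 in A549, 5.51-fold lower (2.02 to 21.0). ZNF649, a KRAB protein reported to bind LINE-1 elements, had 17, 17, 2, 23, 1 and 14 reads in HEK293T and 0 in A549, at least 2.60-fold lower than with T12. ZNF331, an imprinted gene, had 12 reads in A549 and 0 in all 6 HEK293T libraries, at least 8.72-fold higher. ZNF382 had at most 6 reads in any library. ZNF473, a component needed for processing histone pre-mRNA, was chosen after its values were seen: it had 54.8 CPM in HEK293T T12, 7.81 to 54.8 over HEK293T and 10.0 in A549.

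Of 38 genes of the KRAB corepressor pathway found in the tables, 36 were tested between primer classes. The edgeR test called 0 in either direction, with 4 higher and 1 lower at an unadjusted p under 0.05, where 8.08% and 7.48% of all genes were. DESeq2 called 2 of them higher and 0 lower, and 282 and 315 of all 10886 genes. The pathway was read far above its zinc finger partners, at a median of 12.3 CPM per kb. TRIM28 had 232 CPM in HEK293T T12, 151 to 335 over HEK293T and 221 in A549, within the range. SETDB1 had 149 CPM in HEK293T T12, 41.6 to 149 over HEK293T and 35.4 in A549, 4.22-fold lower (3.18 to 5.72). Against A549, 5 of 35 compared genes were at least 2-fold higher (14.3%, where 31.0% of all genes were) and 8 lower (22.9%, where 29.2% were), with 22 between. DNMT1, HDAC1 and CBX5 were chosen after their values were seen. DNMT1, the maintenance DNA methyltransferase, was 13.7-fold lower in A549 (29.4 against 403 CPM, 283 to 626 over HEK293T). HDAC1 was 6.28-fold lower and CBX5, which encodes an HP1 protein, 6.21-fold higher (242 against 38.9 CPM). ZNF274, a member that recruits SETDB1, had 1 to 11 reads in HEK293T and 5 in A549.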

How the data were processed

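CLT-seq libraries from HEK293T and A549 total RNA were counted per RefSeq transcript entry. Read counts per entry were made by the authors and used as deposited; the submitters' processing notes name FastQC 0.11.8, cutadapt 2.10, Trimmomatic 0.39, HISAT2 2.2.1, SAMtools and GRCh37/hg19, without their roles. Per the file headers, the tables also hold a depth-scaled signal (FPM), used only to find library totals, and the authors' FPKM, which was not used. Of 61177 entries 98.3% matched a RefSeq symbol, and 1044 did not. The members and lists were chosen with earlier results of these data known.

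Genes were filtered with filterByExpr, scaled by TMM and tested with edgeR 4.0.16 (R 4.3.3) for anchored against unanchored HEK293T primers, with Benjamini-Hochberg adjustment over all genes and DESeq2 1.42.0 as an alternative. The steps were also run on simulated data with less spread between libraries than here (fitted common biological coefficient of variation 0.484). How they perform at the spread of these data was not tested. A549 T12 was set against HEK293T T12 without a test, with a pseudocount of 1 CPM. The 6 primers of HEK293T and A549 have 1 counted library each, and 2 further libraries without gene counts were not analysed here. Floors of 3 reads and intervals (95%) cover counting error only, since PCR reads are not independent molecules. A batch or date of preparation is not given in the sources used here.

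Sequence features came from GENCODE transcripts matched to 241 of 242 members, 204 of them within 20% of the deposited length, and promoters from RefSeq GRCh38.p14. The text names called members, the 8 highest per kb, the 6 highest and 6 lowest in A549 (50 reads or more, outside the HEK293T range), the 4 widest and 2 narrowest over primers, ZNF557, and members with a described role, with TRIM28 and SETDB1. Other names were chosen after their values were seen. Alternatives covered the tool, scaling, filter, entry choice, overlapping genes, cluster gap and each library left out.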

Additional observations from a re-analysis of the deposited data

Results flagged for a closer look

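Sets of 6 HEK293T values were examined for a library whose gap to the nearest other library, as a part of the whole range, was above Dixon's 95% critical value. Of 33 sets 5 met this, where chance gives about 1 in 20, but none of the 5 can be read against that rate. ZNF557 stood at 77585 CPM with T18, where the others lay between 44.4 and 77.6 CPM, and it was set apart for this value from the start. ZNF91 at 0.556 CPM with T18VNN, ZNF85 at 1.53 CPM with T12 and ZNF43 at 0.446 CPM with T18VN were at 0 in the other HEK293T libraries, so any read at all meets the rule, and the values rest on 2, 5 and 2 reads. ZNF546 stood at 46.0 CPM with T30, where the others lay between 0.446 and 11.8 CPM. It was among the sets because of its wide range over these same libraries, so its flag follows from how it was chosen.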

How the results depend on the processing

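ZNF302 was lower with anchored primers under every alternative run, with log2 fold changes of -5.02 to -3.95 when 1 library was left out and an adjusted p of at most 0.0215. Members called lower numbered 4 with DESeq2 (ZNF302, ZNF324, ZNF358, ZNF546) and 2 without a filter on low counts (ZNF302, ZNF546); members called higher numbered 0 throughout. ZNF557, kept apart, passed without the filter (adjusted p = 8.54e-07, edgeR) and without T12 (0.041, edgeR). Over all genes, calls lower (62) and higher (85) became 315 and 282 with DESeq2, 273 and 283 without a filter, and 32 and 27 with reads summed over entries. Leaving out 1 library gave 27 to 66 lower (35 without T30, 29 without T18V, 27 without T18VNN) and 19 to 56 higher, each library moving the latter by over 1.5 times. The cause was not tested.

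The difference in summed share (-0.083 percentage points) was -2.47 with ZNF557 counted, -0.168 with reads summed over entries and -0.019 without ZNF302, an alternative chosen after seeing the data. In this and the other summed alternatives, reads shared by several entries of a gene are counted more than once. ZNF302 has 6 entries that each hold nearly the same reads. Median primer differences of clusters were unstable when 1 library was left out: -0.62 to 0.13 for ZNF414 to ZNF846 (and -0.83 with a 1 Mb gap), -0.69 to 0.40 for ZNF575 to ZNF180, -0.56 to 0.24 for ZNF175 to ZNF331, -0.36 to 0.25 for ZNF628 to ZNF835 and -0.49 to -0.12 for ZNF264 to ZNF446.

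Members higher and lower in A549 (22 and 27) were 12 and 26 by library total and 17 and 27 by TMM. They were 28 and 17 against the mean of 3 unanchored libraries and 41 and 34 with summed entries. At 50 reads they were 7 and 12, and without a filter 68 and 46. The balance between directions therefore depends on the scaling, the reference, the entry choice and the read filter. Library-total scaling moved the median of all genes by -0.28, TMM by -0.26. The members' median (0.08) was 0.54 without a filter. With a 250 kb gap the cluster medians were -2.22 (ZNF175 to ZNF331) and 0.71 (ZNF628 to ZNF835). Of the alternative A549 ratios of named members, 116 lay within the main counting interval and 23 beyond it. None of those past 2-fold changed sign, but ZNF428 (0.03) was -0.24 by TMM, -0.31 by library total and -0.10 against the unanchored mean, and ZNF358 (0.11) was -0.15 by TMM and -0.22 by library total. No paired analysis was possible because each primer has 1 counted library, and the counted T12 libraries of HEK293T and A549 carry different replicate numbers. Depth limits members under 5 reads, which are most of the family in T12, T30, T18V and A549.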
